A study of Rattus norvegicus with 9 samples.

Results

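Gene expression was examined here for the clock genes whose transcripts rise together with the Per genes, in the frontal cortex of rats with neonatal maternal separation (MS) and electroacupuncture (EA). The group was defined by name and comprises 10 genes, namely Dbp, Tef, Hlf, Nr1d1, Nr1d2, Per1, Per2, Per3, Ciart and Bhlhe41. Of these, 9 had a row among the 37209 genes of the count table, and all 9 passed the filter that left 16837 genes for testing. Hlf was not analysed here. The genes were picked with the values of these same rats in view, so their levels and the differences between groups below are a description and carry no test.

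The molecular clock is a loop of transcription factors. CLOCK (or NPAS2) and BMAL1, the product of Arntl, pair up and switch on genes with an E-box in their promoters, among them the Per and Cry genes, Nr1d1, Nr1d2, Dbp and Ciart. PER and CRY proteins then hold this pair back, the REV-ERB proteins made from Nr1d1 and Nr1d2 repress Arntl, and DBP, TEF and HLF act on a further set of genes through the D-box. Dbp, Nr1d1 and the Per genes therefore run in a phase nearly opposite to that of Arntl, in cortex as in most tissues.

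Total RNA depleted of rRNA had been sequenced from 9 male Wistar rats aged 14 weeks, with 3 rats in each of the Control (A1, A2 and A6), MS (B3, B4 and B6) and MS+EA (C3, C10 and C16) groups. MS and MS+EA rats had been parted from their mothers for 4 h on each day between postnatal day (PND) 1 and PND 21, whereas Control litters stayed with theirs. MS+EA rats received EA at the GV20 and GV29 acupoints under isoflurane on alternate days between PND 61 and PND 81, in morning sessions. By the study's methods, Control and MS rats were given the anesthesia alone, so all 3 groups share it. No sham EA rats are among the samples, so EA and the handling that came with it cannot be told apart. The needles and the current were given together and cannot be told apart either. Tissue was taken after behavioral tests. The time of day of tissue removal is not given in the sources used here, nor is it given whether littermates were used. Differences between groups in clock time at removal and in clock gene regulation cannot be told apart in these data.

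The depth was 12479905 to 19007907 counts per rat, lowest in the MS+EA group, which reached at most 14913736 counts. Between rats of a group, the variance of the counts was 5.96 to 13.0 times that of counting alone in the 9 pairs, so no library was a copy of another. Neuronal markers summed to 5757 to 7158 CPM (read counts scaled to TMM-normalized library sizes) in every rat, whereas the choroid plexus markers summed to 1.14 to 13.1 CPM, highest in the MS rat B4. The Control rat A6 stood apart in a chosen list of genes that glucocorticoid hormone raises, as given beside the Per genes below. In bulk tissue, fewer cells of a type and less RNA per cell cannot be told apart.

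To show which clock elements the genes share, their promoters were read from RefSeq (build GRCr8), as the 250 bases before each annotated transcription start. All 9 genes with a row had a promoter there, with a pair of windows for Nr1d1. The windows with a perfect match to the E-box CACGTG, to the E-box variant CACGTT, or to the D-box (TTATGTAA or TTACGTAA) are printed from 5′ to 3′ on the strand of the gene, with the matches in capitals. Both strands were searched, so that CACGTT also appears as AACGTG. The windows lie on the minus strand at chr2:186112247-186112496 (Ciart), chr9:99496994-99497243 (Per2), chr10:84231813-84232062 and chr10:84229455-84229704 (Nr1d1) and chr4:180569356-180569605 (Bhlhe41), and on the plus strand at chr7:115206577-115206826 (Tef).
Ciart: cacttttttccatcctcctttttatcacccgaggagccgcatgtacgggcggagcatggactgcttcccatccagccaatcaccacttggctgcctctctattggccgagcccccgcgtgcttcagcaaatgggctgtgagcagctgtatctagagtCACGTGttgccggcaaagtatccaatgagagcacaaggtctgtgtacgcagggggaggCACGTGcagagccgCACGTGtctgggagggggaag
Per2: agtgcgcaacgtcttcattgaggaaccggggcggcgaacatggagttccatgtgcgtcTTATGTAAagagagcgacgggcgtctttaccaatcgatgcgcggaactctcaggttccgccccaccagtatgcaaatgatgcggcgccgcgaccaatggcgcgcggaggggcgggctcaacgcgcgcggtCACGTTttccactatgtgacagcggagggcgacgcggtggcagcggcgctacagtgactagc
Nr1d1, first window: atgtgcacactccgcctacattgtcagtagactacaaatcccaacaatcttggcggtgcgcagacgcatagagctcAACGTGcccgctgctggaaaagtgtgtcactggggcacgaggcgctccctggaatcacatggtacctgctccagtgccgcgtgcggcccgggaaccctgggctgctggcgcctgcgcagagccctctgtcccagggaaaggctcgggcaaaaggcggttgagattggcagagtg
Nr1d1, second window: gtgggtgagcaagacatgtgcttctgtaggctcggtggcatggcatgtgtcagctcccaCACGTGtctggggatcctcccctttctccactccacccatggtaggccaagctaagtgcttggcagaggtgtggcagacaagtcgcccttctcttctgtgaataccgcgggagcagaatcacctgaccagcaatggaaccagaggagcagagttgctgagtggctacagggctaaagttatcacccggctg
Bhlhe41: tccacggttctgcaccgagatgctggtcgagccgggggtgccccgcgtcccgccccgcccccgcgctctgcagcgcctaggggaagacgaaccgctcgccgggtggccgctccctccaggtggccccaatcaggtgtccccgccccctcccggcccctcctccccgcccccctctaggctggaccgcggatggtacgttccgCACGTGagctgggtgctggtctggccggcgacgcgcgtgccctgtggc
Tef: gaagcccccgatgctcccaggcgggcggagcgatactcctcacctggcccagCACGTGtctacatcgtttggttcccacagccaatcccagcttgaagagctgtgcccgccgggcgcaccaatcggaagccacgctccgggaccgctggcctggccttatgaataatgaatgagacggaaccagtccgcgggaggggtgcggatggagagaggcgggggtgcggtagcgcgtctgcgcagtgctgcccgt

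Ciart, which encodes a repressor of CLOCK and BMAL1, held 3 E-boxes, which begin 93, 35 and 21 bases before the start. Tef, Bhlhe41 and the second window of Nr1d1 held 1 each, at 198, 48 and 191 bases before the start. The variant CACGTT was found 62 bases before the start of Per2 and 174 bases before that of the first window of Nr1d1. Per2 alone of the 9 genes held a D-box match, 192 bases before its start. Of the 9 genes, 4 thus held CACGTG, against 6.18% of 27457 genes in the same 250 bases. The variant was present in 2 genes against 4.47% of all genes, and the D-box in 1 gene against 1%. The element bound by REV-ERB and ROR proteins (TAGGTCA or TGGGTCA), which 6.08% of genes held, and the cAMP element TGACGTCA, which 1.78% held, were not found in these windows of the 9 genes. Dbp, Nr1d2, Per1 and Per3 held none of the letters searched. A match is a string of letters and not a measured site, and a gene without one in this window may hold it elsewhere.

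The genes were lower in MS rats than in Control rats, and higher in MS+EA rats than in MS rats, with Tef as the exception in the latter. Summed over the 9 genes, expression was 849 to 1038 CPM in Control rats, 710 to 745 CPM in MS rats and 900 to 1030 CPM in MS+EA rats. The sums of the MS rats did not overlap those of the other rats. The median log2 fold change of the 9 genes was -0.48 in MS against Control rats, 0.51 in MS+EA against MS rats and 0.20 in MS+EA against Control rats, where the median of all genes tested was -0.00135, 0.000586 and 0.00553. All 9 log2 fold changes were negative in the first comparison and positive in the second, where that of Tef was 0.00. The MS rats enter both of these comparisons, so their opposite signs are not independent.

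**Figure D1:**
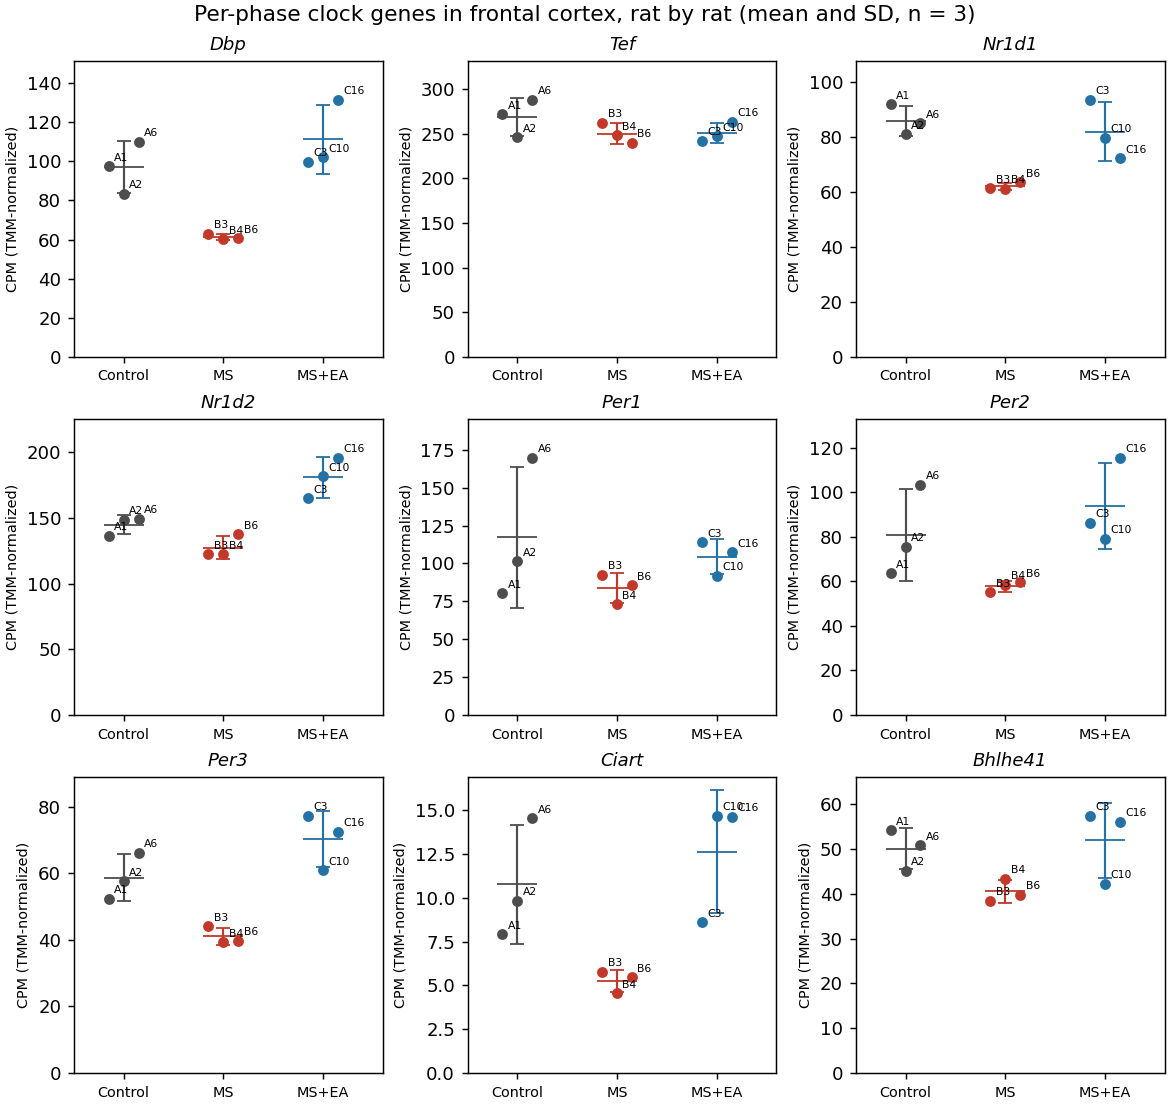
Expression of the 9 genes in each rat, in CPM with TMM-normalized library sizes (vertical axis, from 0), by group (horizontal axis). Points are rats, and bars give the mean and SD of 3 rats. The 3 MS rats lie below all 6 other rats for Dbp, Nr1d1, Per2, Per3 and Ciart, and the groups overlap for Tef and Per1.

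Of the D-box factors, Dbp had MS rats apart from all others, and Tef did not. Dbp, an activator whose transcript has one of the widest daily swings known, was 97.6, 83.4 and 110.1 CPM in Control rats, 62.9, 60.04 and 60.8 CPM in MS rats and 99.9, 102 and 132 CPM in MS+EA rats. The MS rats lay within 3 CPM of each other, and the coefficient of variation was 2.44% there, 13.8% in Control rats and 15.9% in MS+EA rats. With 960 reads in the rat with the fewest, counting alone gives an error of 3.23%. The log2 fold change of Dbp was -0.66 (SE 0.115) in MS against Control rats and 0.86 (SE 0.115) in MS+EA against MS rats.

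Tef, which encodes a factor of the same family with a flatter rhythm, was the most abundant of the 9 genes in reads and varied little. It was 272, 246 and 288 CPM in Control rats, 263, 248 and 240.2 CPM in MS rats and 242, 247 and 264 CPM in MS+EA rats. The 3 groups overlapped. Its log2 fold changes were -0.10 (SE 0.0720), 0.00 (SE 0.0721) and -0.10 (SE 0.0721) in the 3 comparisons. The reads of Dbp per read of Tef, a ratio within each rat that no scaling of libraries alters, were 0.359, 0.339 and 0.382 in Control rats, 0.240, 0.242 and 0.253 in MS rats and 0.412, 0.414 and 0.499 in MS+EA rats. By this ratio all 3 groups were separate, with MS+EA rats highest. The reads of Ciart and of Per1 per read of Tef did not separate the 3 groups. For Ciart, Control rats (0.029 to 0.050) and MS+EA rats (0.035 to 0.059) overlapped, with MS rats below both. For Per1, Control rats at 0.295 to 0.589 overlapped MS rats at 0.294 to 0.356 and MS+EA rats at 0.372 to 0.471.

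The REV-ERB genes, which encode nuclear receptors that repress Arntl, differed from each other in where the MS+EA rats stood. Nr1d1 was 91.7, 80.8 and 84.8 CPM in Control rats, 61.3, 61.04 and 63.4 CPM in MS rats and 93.5, 79.7 and 72.3 CPM in MS+EA rats. The MS rats lay below all others, with a coefficient of variation of 2.05%, and the Control and MS+EA rats overlapped. Nr1d2 was 137, 149 and 149.6 CPM in Control rats, 122, 122 and 138 CPM in MS rats and 165, 182 and 196 CPM in MS+EA rats. All MS+EA rats lay above all other rats, whereas the highest MS rat, B6, was just above the lowest Control rat, A1. The log2 fold changes of Nr1d1 were -0.47 (SE 0.0911) in MS against Control rats, 0.40 (SE 0.0916) in MS+EA against MS rats and -0.07 (SE 0.0907) in MS+EA against Control rats. Those of Nr1d2 were -0.19 (SE 0.0788), 0.51 (SE 0.0790) and 0.32 (SE 0.0787). Within the MS+EA group the rat with the most Nr1d1, C3, had the least Nr1d2, and C16 had the reverse.

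The Per genes encode the repressors of the loop, and Per1 is also raised directly by glucocorticoid hormone and by neuronal activity. Per3 was 52.4, 57.6 and 66.2 CPM in Control rats, 44.0, 39.3 and 39.7 CPM in MS rats and 77.3, 60.98 and 72.5 CPM in MS+EA rats. Per2 was 63.5, 75.4 and 103 CPM in Control rats, 55.05, 58.4 and 59.5 CPM in MS rats and 86.2, 79.0 and 115 CPM in MS+EA rats. For both genes every MS rat was below every other rat, and Control and MS+EA rats overlapped. The log2 fold changes of Per3 were -0.52 (SE 0.107) and 0.77 (SE 0.108), and those of Per2 were -0.48 (SE 0.164) and 0.70 (SE 0.165), in MS against Control and in MS+EA against MS rats. The first value of Per2 was -0.27 without the Control rat A6, which had the most Per2 of its group.

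Per1 differed from Per2 and Per3 in that the groups overlapped. It was 80.2, 101 and 169.7 CPM in Control rats, 92.5, 73.0 and 85.6 CPM in MS rats and 114, 91.9 and 107 CPM in MS+EA rats. The Control value rests on A6, which had 1.87 times the mean of the other Control rats and was the highest of all 9 rats, and the coefficient of variation of the Control group was 40.0%. The log2 fold change in MS against Control rats was -0.48 (SE 0.208) with A6 and -0.12 without it. In MS+EA against Control rats it was -0.16 (SE 0.207) with A6 and 0.21 without it, so that its direction turned. Its value in MS+EA against MS rats was 0.32 (SE 0.209).

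Of the repressors of CLOCK and BMAL1 outside the Per family, Ciart gave the largest fold changes of the 9 genes and the fewest reads. Ciart was 7.92, 9.82 and 14.5 CPM in Control rats, 5.77, 4.57 and 5.47 CPM in MS rats and 8.60, 14.7 and 14.6 CPM in MS+EA rats. Every MS rat was below every other rat. Its log2 fold changes were -1.02 (SE 0.250) in MS against Control rats and 1.26 (SE 0.251) in MS+EA against MS rats, and the lowest rat had 73 reads, for which counting alone gives an error of 11.7%. Bhlhe41, which encodes the E-box repressor DEC2, was 54.2, 45.2 and 50.9 CPM in Control rats, 38.5, 43.3 and 39.8 CPM in MS rats and 57.4, 42.3 and 56.1 CPM in MS+EA rats. The MS rats were below all Control rats, by 43.3 against 45.2 CPM at the nearest pair, and the MS+EA rat C10 lay among the MS rats. Its log2 fold changes were -0.31 (SE 0.116) and 0.36 (SE 0.117).

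In all, 6 of the 9 genes had every MS rat below every Control rat (Dbp, Nr1d1, Per2, Per3, Ciart and Bhlhe41), where 7.53% of all genes tested did. For the second comparison, 6 genes had every MS+EA rat above every MS rat (Dbp, Nr1d1, Nr1d2, Per2, Per3 and Ciart), where 8.27% of all genes did. Both applied to 5 genes, where 1.13% of all genes tested had every MS rat below every other rat and 1.12% had every MS rat above. At an adjusted p of 0.05 and a fold change of 1.5, the cut-offs that the study set on its FDR and fold change, here with BH adjustment, 0 of the 9 genes were called in MS against Control rats, where 0.00594% of the genes tested were called lower, 2 (Dbp and Per3) were called higher in MS+EA against MS rats, where 0.0178% were, and 0 were called in MS+EA against Control rats, where 1.37% were called in either direction. These calls are by edgeR. The study, which used EBSeq, listed Dbp among the genes lower in MS rats and reversed by EA. Both those of Dbp and Per3 were lost with at least 10 counts required in every rat, with the 6 rats compared, with bias-adjusted deviances, and without A1, B3, B4, B6 or C16, and that of Per3 also without A2 or C3. With DESeq2, Dbp and Ciart were called lower in MS against Control rats, where 0.0416% of genes were, and Dbp, Per2, Per3 and Ciart higher in MS+EA against MS rats, where 0.154% were. With all genes of at least 1 count in edgeR, these same genes were called in the same comparisons, where 0.0848% and 0.173% of genes were. The choice of the genes had already used these values, so none of these counts or calls is a test of the 9 genes. The shares of all genes tested are given as background only.

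The genes of the opposite phase and the rest of the core clock were taken from a list of 16 genes, 15 of which were tested. None of the 15 was called in any of the 3 comparisons. At an unadjusted p under 0.05, 4 were higher and 1 was lower in MS against Control rats, where 7.06% and 3.55% of all genes tested were, and 0 were higher and 2 lower in MS+EA against MS rats, where 6.01% and 6.42% were. The median log2 fold change of the 15 genes was -0.04 in the first comparison and -0.13 in the second.

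Arntl, which encodes BMAL1, ran opposite to the mean of the 9 genes over the rats, though not to each gene in each comparison. It was 47.6, 42.7 and 37.7 CPM in Control rats, 53.4, 56.1 and 57.5 CPM in MS rats and 39.2, 29.2 and 27.3 CPM in MS+EA rats. Every MS rat was above every other rat. The log2 fold change was 0.38 (SE 0.125, BH-adjusted p = 0.279) in MS against Control rats, -0.80 (SE 0.128, BH-adjusted p = 0.0938) in MS+EA against MS rats and -0.42 (SE 0.128, BH-adjusted p = 0.0756) in MS+EA against Control rats, none past the threshold. The call in MS+EA against MS rats depends on the analysis, with an adjusted p of 1.27e-05 in DESeq2 (log2 fold change -0.80), of 9.09e-05 in edgeR with all genes of at least 1 count and of 0.0141 without the rat C3. Without C3, the adjusted p in MS+EA against Control rats was 0.0144 with a log2 fold change of -0.59.

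Nfil3, which encodes a repressor that competes with DBP, TEF and HLF for the D-box, was 5.62, 8.90 and 7.09 CPM in Control rats, 11.1, 9.88 and 10.2 CPM in MS rats and 8.26, 8.18 and 4.93 CPM in MS+EA rats. Every MS rat was again above every other rat. Its log2 fold changes were 0.53 (SE 0.209, BH-adjusted p = 0.379) and -0.54 (SE 0.212, BH-adjusted p = 0.329), neither past the threshold. Clock, the partner of BMAL1, was 156, 162 and 157 CPM in Control rats, 183, 201 and 205 CPM in MS rats and 174, 197 and 169 CPM in MS+EA rats. The Control rats were below all others, with a log2 fold change of 0.31 (SE 0.0724, BH-adjusted p = 0.146) in MS against Control rats and -0.13 (SE 0.0724, BH-adjusted p = 0.491) in MS+EA against MS rats. Rora, an activator of Arntl, was 142 to 144 CPM in Control rats, 154 to 174 CPM in MS rats and 160 to 177 CPM in MS+EA rats, and the Control rats were below all others (MS against Control rats, log2 fold change 0.22, BH-adjusted p = 0.252).

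Of the other repressors, Cry2 was 149 to 168 CPM in Control rats, 137 to 139 CPM in MS rats and 125 to 134 CPM in MS+EA rats, so that the 3 groups did not overlap. Its log2 fold change of -0.26 in MS+EA against Control rats had a BH-adjusted p of 0.0430 but lay under the fold threshold, and that in MS against Control rats was -0.19 (BH-adjusted p = 0.314). Cry1 was read at only 1.62 to 2.61 CPM, with log2 fold changes of -0.14 (BH-adjusted p = 0.894) and -0.22 (BH-adjusted p = 0.775). Bhlhe40, the paralog of Bhlhe41, had log2 fold changes of -0.27 (BH-adjusted p = 0.489) and 0.04 (BH-adjusted p = 0.937), with its highest value, 169 CPM, in the Control rat A6. Npas2, which can stand in for CLOCK, had log2 fold changes of -0.11 (BH-adjusted p = 0.591) and -0.13 (BH-adjusted p = 0.448). For MS+EA against Control rats, Npas2 (-0.23, BH-adjusted p = 0.0582) and the kinase gene Csnk1d (-0.22, BH-adjusted p = 0.0808) had an unadjusted p under 0.05 and were not called.

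**Figure D2:**
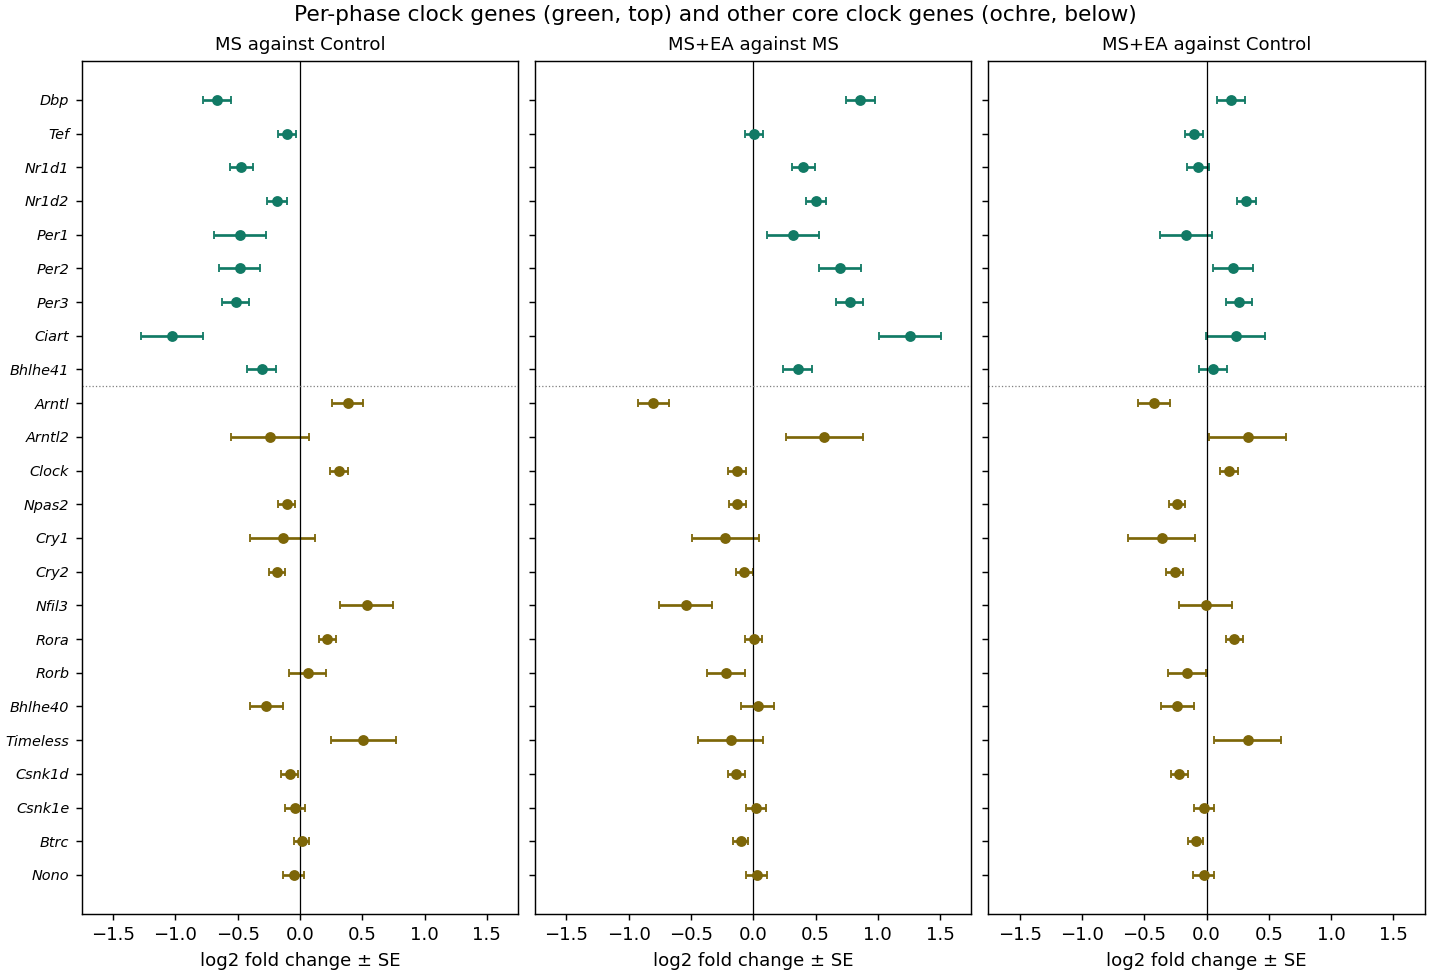
Log2 fold changes with SEs (horizontal axis) of the 9 genes (green) and of the 15 other core clock genes tested (ochre) in the 3 comparisons, from the edgeR model of all 9 rats. In MS against Control rats Dbp stood at -0.66 and Arntl at 0.38, and in MS+EA against MS rats at 0.86 and -0.80.

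The ratio of Dbp reads to Arntl reads sets the opposite phases against each other within a rat, without any scaling of libraries. It was 2.05, 1.95 and 2.92 in Control rats, 1.18, 1.07 and 1.06 in MS rats and 2.55, 3.50 and 4.81 in MS+EA rats. The MS rats were below all others, and only the Control rat A6 and the MS+EA rat C3 overlapped between the remaining groups. Per3 reads per Arntl read were 1.10, 1.35 and 1.76 in Control rats, 0.824, 0.701 and 0.691 in MS rats and 1.97, 2.09 and 2.65 in MS+EA rats, so that by this ratio the 3 groups were separate. Per3 reads per Clock read were 0.336 to 0.421 in Control rats, 0.194 to 0.240 in MS rats and 0.310 to 0.445 in MS+EA rats. These ratios are not corrected for the lengths of the genes and are compared between rats only.

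**Figure D3:**
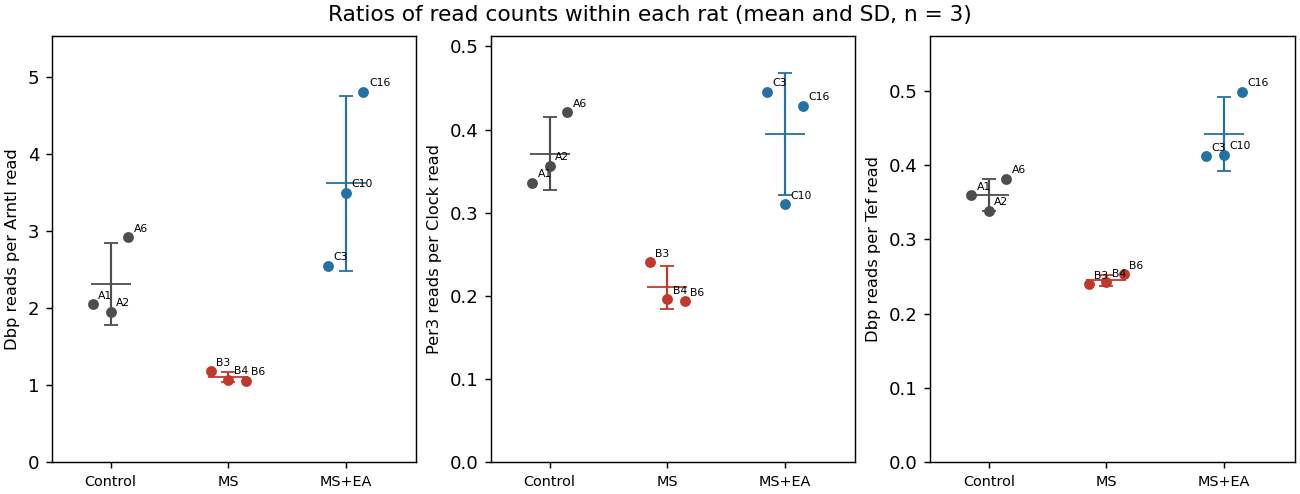
Reads of Dbp per read of Arntl (left), of Per3 per read of Clock (middle) and of Dbp per read of Tef (right) in each rat, with the mean and SD of 3 rats per group and vertical axes that start at 0. The MS rats are below all others in each panel, at 1.06 to 1.18 reads of Dbp per read of Arntl.

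Across the 9 rats, the genes varied together. Pearson's correlation of log2 CPM over the 36 pairs of the 9 genes had a median of 0.67 (Spearman 0.60), ranged from -0.04 to 0.91 and was positive in 35 pairs. Dbp correlated at 0.91 with both Per3 and Ciart, and Tef had the weakest ties. The rats of a group share their treatment, and the genes of a rat share its library, so these values are a description over 9 rats. After the group means were removed, the median fell to 0.38, the range widened to -0.72 to 0.88 and 27 pairs were positive. Within groups Dbp went with Tef (0.88), and Per1 with Per3 (0.86). Nr1d1 went against Nr1d2 (-0.72) and Ciart (-0.68), although their group means were all lowest in MS rats.

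**Figure D4:**
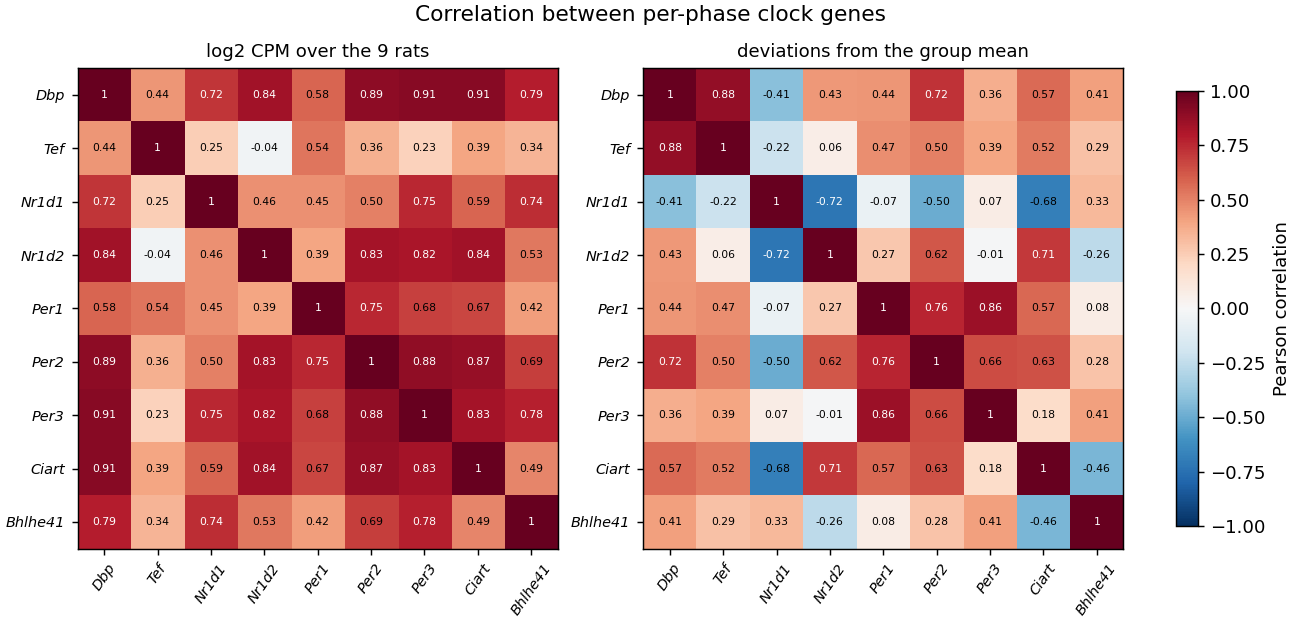
Pearson correlation between the 9 genes over the 9 rats (left) and between their deviations from the group means (right), on a color scale from -1 to 1. The left panel is positive for 35 of 36 pairs, and the right panel for 27, with Nr1d1 against Nr1d2 at -0.72.

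The mean of the 9 genes on the log2 scale, against the Control mean, was -0.13, -0.09 and 0.22 in Control rats, -0.42, -0.50 and -0.44 in MS rats and 0.08, 0.02 and 0.23 in MS+EA rats. Dbp followed this mean most closely of the 9 genes (Pearson 0.97, Spearman 0.97) and Tef least (0.42 and 0.33). Each of the 9 genes is itself part of the mean, so these values cannot be set beside those of genes outside it. Arntl correlated with it at -0.88 (Spearman -0.93), and at -0.59 within groups. Over all genes tested outside the 9, those most like the mean were Muc2 (0.97), Ptpn2 (0.95), Cfap46 (0.94), LOC103691806 (0.94), LOC364806 (0.94), LOC103691357 (0.92), Rad54b (0.92) and LOC103690951 (0.92). Apart from Ptpn2, which encodes a tyrosine phosphatase and had 11.8 to 17.4 CPM, these genes had at most 3.82 CPM in any rat. The most opposite were Vom2r53 (-0.92), LOC102547413 (-0.92), Hbegf (-0.92) and Ube2j1 (-0.91). These were picked from 16828 genes over 9 rats, and nothing is said here of shared control.

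The known downstream genes of the clock did not show the pattern of the 9 genes as a list. All 12 listed genes were tested and 0 were called in the 3 comparisons, with a median log2 fold change of -0.03 in MS against Control rats and 0.08 in MS+EA against MS rats. At an unadjusted p under 0.05, 2 were lower (Usp2 and Alas1) and 1 higher (Nampt) in the former, where 3.55% and 7.06% of all genes tested were. In the latter 1 was lower (Cdkn1a), where 6.42% were. Usp2, a deubiquitinase gene, was 83.0 to 93.5 CPM in Control rats, 64.7 to 73.9 CPM in MS rats and 69.5 to 80.1 CPM in MS+EA rats (MS against Control rats, log2 fold change -0.34, BH-adjusted p = 0.146). Alas1, which encodes the rate-limiting enzyme of heme synthesis, was 38.8 to 40.0 CPM in Control rats, 31.2 to 33.4 CPM in MS rats and 33.4 to 38.8 CPM in MS+EA rats, with log2 fold changes of -0.27 (BH-adjusted p = 0.253) and 0.13 (BH-adjusted p = 0.549). Alone of the 12, it had every MS rat below every other rat, by 33.36 (B3) against 33.37 CPM (C10) at the nearest pair. Of all genes tested, 1.13% had this order. Nampt, which encodes the rate-limiting enzyme of NAD salvage, had a log2 fold change of 0.23 in MS against Control rats (BH-adjusted p = 0.424), and Cdkn1a, a cell cycle inhibitor gene, stood at -0.99 in MS+EA against MS rats (BH-adjusted p = 0.275).

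Glucocorticoid hormone raises Per1, and a list of 12 genes known to rise with it was read in the same rats. All 12 were highest of the 9 rats in the Control rat A6, which also had the highest Per1. The list was chosen with earlier results of these data known, and the genes shown beside A6 after their values were seen. The share of all genes tested that were highest in A6 was not computed, so this count is a description. Sgk1 was 142 CPM in A6 and at most 104 CPM elsewhere, Tsc22d3 80.7 CPM against at most 61.4 CPM, and Pdk4 14.98 CPM against at most 8.63 CPM. Per2 and Ciart in A6 were 1.49 and 1.64 times the mean of the other Control rats, within the range of the MS+EA rats. None of the 12 genes was called in a comparison, with median log2 fold changes of -0.29 in MS against Control rats and -0.04 in MS+EA against MS rats. In each of these, 1 was lower at an unadjusted p under 0.05, where 3.55% and 6.42% of all genes tested were. Plin4, a lipid droplet gene, had the smallest p among them in MS against Control rats (log2 fold change -0.42, BH-adjusted p = 0.451), and Cdkn1a and Tsc22d3 are on the list of downstream genes as well. Pearson's correlation of the 12 genes with the mean of the 9 clock genes, after the group means were removed, ranged from 0.25 (Plin4) to 0.94 (Nfkbia) with a median of 0.91, and from 0.15 to 0.89 with a median of 0.68 when A6 was left out. Over all 9 rats it ranged from -0.26 (Cdkn1a) to 0.59 (Tsc22d3), with a median of 0.41. Per1 is itself part of the mean, and no background over all genes is given for these correlations. High values within groups were not confined to this list. Among the other core clock genes, Cry2 and Bhlhe40 stood at 0.88, and Arntl at -0.59. The part of glucocorticoid-raised expression in the levels of the Per genes was not tested. Without A6, the median log2 fold change of the 9 clock genes in MS against Control rats was -0.30.

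**Figure D5:**
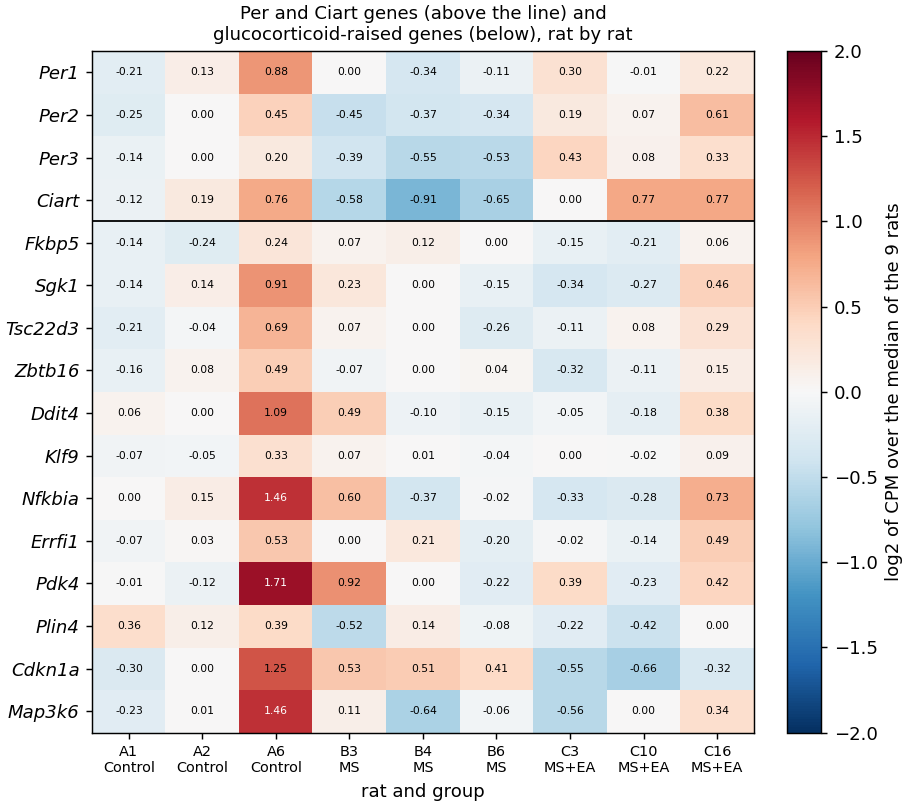
Expression of the Per genes and Ciart (above the line) and of 12 glucocorticoid-raised genes (below) in each rat (columns), as the log2 of CPM over the median of the 9 rats, on a color scale from -2 to 2. Column A6 holds the highest value of the row for Per1 and for all 12 genes of the list, whereas the MS columns are lowest for Per2, Per3 and Ciart.

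Genes raised by neuronal activity were read because Per1 responds to it too. Of 12 listed genes, 0 were called in MS against Control or in MS+EA against MS rats, with medians of -0.34 and -0.41. At an unadjusted p under 0.05, 3 and 2 were lower, where 3.55% and 6.42% of all genes tested were. Against Control rats, 3 were called lower in MS+EA rats, where 20 of 16837 genes tested were. These were Fosb (log2 fold change -1.19, BH-adjusted p = 0.0256), Junb (-0.90, BH-adjusted p = 0.0116) and Egr4 (-1.04, BH-adjusted p = 0.0418). Junb was 48.2, 75.0 and 69.6 CPM in Control rats, 37.3, 48.3 and 45.2 CPM in MS rats and 39.9, 32.6 and 30.9 CPM in MS+EA rats. Fos was at -0.80 in MS+EA against MS rats (BH-adjusted p = 0.365).

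Markers of neurons and of other cell types were set beside the clock genes. The 8 neuronal genes summed to 6357 to 7158 CPM in Control rats, 6718 to 7096 CPM in MS rats and 5757 to 6592 CPM in MS+EA rats, so that the MS+EA rats lay below the MS rats and the Control rats overlapped both. None of the 8 was called in a comparison. At an unadjusted p under 0.05, 1 was higher in MS against Control rats (Snap25), where 7.06% of all genes tested were. In MS+EA against MS rats, 2 were lower (Slc17a7 and Camk2a), where 6.42% were. Every MS+EA rat was below every other rat for Slc17a7, the vesicular glutamate transporter gene, with log2 fold changes of -0.18 against MS rats (BH-adjusted p = 0.303) and -0.30 against Control rats (BH-adjusted p = 0.0207), the latter under the fold threshold. Camk2a, a kinase gene of excitatory neurons, stood likewise at -0.28 (BH-adjusted p = 0.26) and -0.36 (BH-adjusted p = 0.0387). The summed level of 6 oligodendrocyte genes was 2125 to 3241 CPM in Control rats, 1830 to 2907 CPM in MS rats and 2045 to 4176 CPM in MS+EA rats, and 0 of the 6 were called. At an unadjusted p under 0.05, 0 differed in MS against Control rats. In MS+EA against MS rats 1 was higher, where 6.01% of all genes tested were. All 6 had a negative log2 fold change in MS against Control rats and a positive one in MS+EA against MS rats, in the directions of the 9 clock genes, with groups that overlapped. Endothelial genes (6) summed to 187 to 211 CPM in Control rats, 250.1 to 300.1 CPM in MS rats and 223 to 258 CPM in MS+EA rats, with the Control rats below all others. All 6 had a positive log2 fold change in MS against Control rats, and 5 had a negative one in MS+EA against MS rats. At an unadjusted p under 0.05, 3 were higher in the former and 2 lower in the latter, where 7.06% and 6.42% of all genes tested were. Of the 6, 1 was called higher in MS against Control rats (log2 fold change 0.67, BH-adjusted p = 0.0421), where 3 of 16837 genes tested were. It is listed as Slco1a2, a symbol that RefSeq pairs with both Slco1a4 and Slco1a5. Astrocyte, microglial and interneuron genes overlapped between the groups in their sums, and none of them was called in the 3 comparisons. The part of cell composition in the levels of the clock genes was not tested.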

How the data were processed

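RNA-Seq libraries (rRNA depletion, Illumina HiSeq X) came from the frontal cortex of 9 rats. The authors mapped the reads to Rnor_6.0 with HISAT2 2.0.4 (per the labels) and deposited whole-number counts per gene, without normalization. The counting program, its strand setting and the treatment of reads with several locations are not given in the sources used here, so reads of overlapping or antisense genes cannot be told apart. The total was 12479905 to 19007907 counts per rat. Groups were taken from the labels. All replicates are single rats, and litters are not given.

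The 9 clock genes and the gene lists were chosen with earlier results of these data known. Counts were normalized by TMM in edgeR 4.0.16 (R 4.3.3), genes were kept by filterByExpr (minimum count 10), and edgeR's quasi-likelihood F test was run on 1 model of all 9 rats with group means, with Benjamini-Hochberg adjustment over 16837 genes. Genes were called at a BH-adjusted p below 0.05 with more than 1.5-fold change. SE was obtained as the absolute log2 fold change over the root of F. Log2 CPM used a prior count of 2. For single values, 3 rats per group allow no exact permutation p (two-sided) below 0.1. The study's methods used EBSeq, which was not run here.

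Genes named were the 9 members, the core clock genes with an unadjusted p under 0.05 together with Arntl, Clock, Npas2, Cry1, Cry2, Nfil3 and Bhlhe40, at most 4 such genes of each other list, and the 8 genes most and 4 least correlated with the mean of the 9 genes. The genes shown beside A6 and the markers were chosen after their values were seen. Noct was read under its table symbol Ccrn4l, by the names RefSeq pairs. Part of the core clock list is not reported here. Procedures were tested on simulated data. Alternatives were RLE factors or total counts, other filters on low counts, DESeq2 1.42.0, limma-trend (limma 3.58.1), the 6 rats compared, bias-adjusted deviances, no fold threshold the omission of each rat and, for the correlations of the glucocorticoid list and chosen after seeing the data, of A6. Plots were drawn with Python 3.11.15 and matplotlib 3.10.9.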

Additional observations from a re-analysis of the deposited data

How the results depend on the processing

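No paired analysis was possible because each rat belongs to 1 group and the labels give no litter or batch that links rats across groups. The number of genes called in MS against Control rats, 4 with the main settings, was 207 with all genes of at least 1 count, 70 with DESeq2, 11 with only the 6 rats compared, and 2 to 22 with a rat left out (2 without A1 or A2, 22 without B3). In MS+EA against MS rats, 3 became 0 with at least 10 counts in every rat (1951 at an unadjusted p under 0.05), 72 with at least 1 count, 37 with DESeq2, 1 with the 6 rats compared, 1 with bias-adjusted deviances, and 1 to 4 with a rat left out (1 without A1 or C16). In MS+EA against Control rats, 230 became 469 with at least 1 count, 910 with no fold threshold, and 71 to 304 with a rat left out (71 without A1, 121 without C10). The cause was not tested.

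The median log2 fold change of the 9 clock genes kept its direction in all alternatives run. With a rat left out it was -0.59 to -0.30 in MS against Control rats (-0.30 without A6), 0.48 to 0.57 in MS+EA against MS rats, and 0.03 to 0.30 in MS+EA against Control rats (0.06 without A1, 0.0334 without C16). The number of clock genes with every MS rat below every other rat, 5, was 6 with RLE factors or total counts, by Nr1d2, and 5 to 7 with a rat left out. With a rat left out, fewer rats have to be ordered for every gene. The share of all genes was computed with the main settings only (1.13%), so these counts have no background of their own. Among the other core clock genes, 0 calls became 1 with at least 1 count, with DESeq2 (Arntl in both) and with no fold threshold (Cry2), and 2 without C3 (Arntl in 2 comparisons). The calls of Dbp and Per3 in MS+EA against MS rats were lost with at least 10 counts in every rat, the 6 rats compared and bias-adjusted deviances, and also without A1, B3, B4, B6 or C16, and that of Per3 without A2 or C3 as well. Clock genes called in MS against Control rats were Dbp and Ciart with at least 1 count or DESeq2. There, 0.0848% and 0.0416% of all genes tested were called lower. Dbp was also called with the 6 rats compared, where 2 of 16364 genes were called lower, and without C16, where 2 of 17137 were. In MS+EA against MS rats, Dbp, Per2, Per3 and Ciart were called with at least 1 count or DESeq2. Of all genes tested, 0.173% and 0.154% were called higher there. Depth limits Ciart most, with 73 to 234 reads per rat.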
